A study of Mus musculus with 6 samples.

Results

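The genes of 6 STAT transcription factors, Stat2, Stat3, Stat4, Stat5a, Stat5b and Stat6, were followed through maps of promoter contacts in mouse embryonic stem cells (mESCs). They were chosen by name, as members of the family, and every pair of a promoter fragment and a distal region whose promoter line named any of them was taken from the 4 deposited lists. HiCap replicate 1 listed 519 such pairs of 499874 in all, HiCap replicate 2 listed 674 of 554081, and the Hi-C list held 79 of 74814. A pair was called when both HiCap replicates listed the same gene, promoter fragment and distal region, which left 164 pairs of the 6 genes among 94868 of all genes.

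HiCap joins Hi-C, in which cross-linked DNA is cut, ligated and read from both ends, to a capture step with probes against promoters, which enriches reads that start at a promoter fragment and report what it was ligated to. All libraries came from R1, a single mESC line, kept undifferentiated in serum with leukemia inhibitory factor (LIF), and there was no second condition. HiCap was made in 2 biological replicates and Hi-C, with the same enzyme and no capture, in 2 replicates that share a single list. The lists give positions on the mouse build mm9 and no read numbers, so the number of reads behind each pair is unknown here, a pair has no strength, and the intervals on shares cover counting error only. Pairs that share a fragment are not independent.

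STAT proteins wait in the cytoplasm until a receptor-bound JAK kinase phosphorylates them. They then pair and enter the nucleus, and most of them bind DNA at short palindromes of the form TTC, a spacer of any bases, and GAA. Stat3 is the family member best known in this cell type, since it carries the LIF signal that keeps mESCs self-renewing. Stat5a and Stat5b are close paralogs that answer prolactin, growth hormone and many cytokines, Stat6 answers interleukin 4 and interleukin 13, Stat4 answers interleukin 12, and Stat2 joins Irf9 in the complex that answers type I interferon.

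The members lie on 3 chromosomes. Stat5b, Stat5a and Stat3 are neighbours on chromosome 11, where GENCODE places Stat5b from 100642045 to 100712038 on the minus strand, Stat5a from 100720665 to 100746483 on the plus strand and Stat3 from 100746412 to 100800854 on the minus strand. Stat6 and Stat2 share chromosome 10, Stat6 from 127080042 to 127098013 and Stat2 from 127707629 to 127729905, both on the plus strand. Stat4 lies on chromosome 1 from 52043992 to 52164032 on the plus strand.

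Stretches of 5 called distal regions are shown as examples, with the letters TTCNNNGAA or TTCNNNNGAA in capitals where they occur. They are plus-strand mm9 sequence and touch no annotated exon. The first is a whole intergenic fragment upstream of Stat3, chr11:100814332-100814593, called by promoters of Stat3 and Stat5b. The second is part of a fragment in an intron of Ptrf, the cavin gene upstream of Stat3, chr11:100829105-100829404, called by all 3 members of chromosome 11. The third is part of an intergenic fragment upstream of Stat5a, chr11:100717269-100717568, called by Stat5a alone of all genes. The fourth is part of an intergenic fragment upstream of Stat6, chr10:126948630-126948929, called by promoters of 21 genes, and the fifth part of a fragment in an intron of Stat6, chr10:127086090-127086389, called by 3 Stat6 promoter fragments.
Stat3 and Stat5b, intergenic: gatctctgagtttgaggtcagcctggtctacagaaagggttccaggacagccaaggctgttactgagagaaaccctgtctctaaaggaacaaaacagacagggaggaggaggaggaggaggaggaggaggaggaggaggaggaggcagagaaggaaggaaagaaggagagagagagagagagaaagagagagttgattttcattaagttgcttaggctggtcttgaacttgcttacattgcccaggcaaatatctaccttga
Stat3, Stat5a and Stat5b, Ptrf intron: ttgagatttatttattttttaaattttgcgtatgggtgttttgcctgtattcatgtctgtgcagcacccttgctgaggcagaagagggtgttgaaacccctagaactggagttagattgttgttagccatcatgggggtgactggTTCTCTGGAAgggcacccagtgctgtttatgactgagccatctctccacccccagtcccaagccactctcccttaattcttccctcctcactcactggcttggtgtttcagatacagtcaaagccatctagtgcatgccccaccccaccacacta
Stat5a alone, intergenic: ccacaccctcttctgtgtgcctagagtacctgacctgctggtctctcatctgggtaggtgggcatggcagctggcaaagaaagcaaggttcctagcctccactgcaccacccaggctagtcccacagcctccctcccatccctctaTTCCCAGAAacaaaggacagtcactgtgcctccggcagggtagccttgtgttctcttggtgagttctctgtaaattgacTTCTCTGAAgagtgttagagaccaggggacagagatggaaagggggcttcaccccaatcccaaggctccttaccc
Stat6 and others, intergenic: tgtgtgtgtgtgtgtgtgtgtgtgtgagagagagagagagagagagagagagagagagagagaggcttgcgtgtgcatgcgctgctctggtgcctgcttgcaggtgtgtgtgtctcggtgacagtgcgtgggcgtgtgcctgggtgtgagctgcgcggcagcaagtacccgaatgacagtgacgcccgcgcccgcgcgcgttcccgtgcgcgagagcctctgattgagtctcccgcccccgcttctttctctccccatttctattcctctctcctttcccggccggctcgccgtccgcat
Stat6, own intron: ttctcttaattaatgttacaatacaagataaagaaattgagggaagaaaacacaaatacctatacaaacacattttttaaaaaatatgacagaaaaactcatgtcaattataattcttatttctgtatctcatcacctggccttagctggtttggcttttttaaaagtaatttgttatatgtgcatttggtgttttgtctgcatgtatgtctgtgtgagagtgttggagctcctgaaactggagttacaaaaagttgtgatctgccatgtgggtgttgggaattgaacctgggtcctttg
The first stretch holds a run of agg units, and 81.0% of its 31-base words occur once in mm9. In the fourth, gt and ga repeats lead into sequence rich in G and C. The third holds 2 copies of TTCNNNGAA and the second holds 1 of TTCNNNNGAA. Those counts follow from the choice of stretches. The third region was picked for its number of TTCNNNGAA matches, and both stretches were centred on a match.

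All 6 genes had a call, where 60.7% of the 21202 genes listed in either HiCap replicate had any. All 18 of their promoter fragments that the replicates listed had a call too, beside 51.7% of the 30713 promoter fragments of all genes. The 6 genes were linked to between 8 and 43 distal regions, with a median of 19 beside a median of 1 over all listed genes. A promoter fragment of theirs had a median of 6.5 called pairs, again beside 1.

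Stat3, the LIF-responsive member, was listed with 99 pairs in replicate 1, 92 in replicate 2 and 35 in Hi-C, and 40 were called. Stat5a was listed with 44 and 69 pairs in the replicates and 12 in Hi-C, and 23 were called. Stat5b was listed with 74 and 133 pairs and 14 in Hi-C, and 25 were called. The replicates thus gave Stat3 nearly equal counts, while replicate 2 listed more pairs for both Stat5 genes. Stat6 was listed with the most pairs of the family in the HiCap lists, 209 and 280, of which 57 were called, and with 13 in Hi-C. Stat4 had 70 and 74 pairs with 11 called, and 5 in Hi-C. Stat2 had 23 and 26 pairs with 8 called and was not listed in Hi-C.

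**Figure D1:**
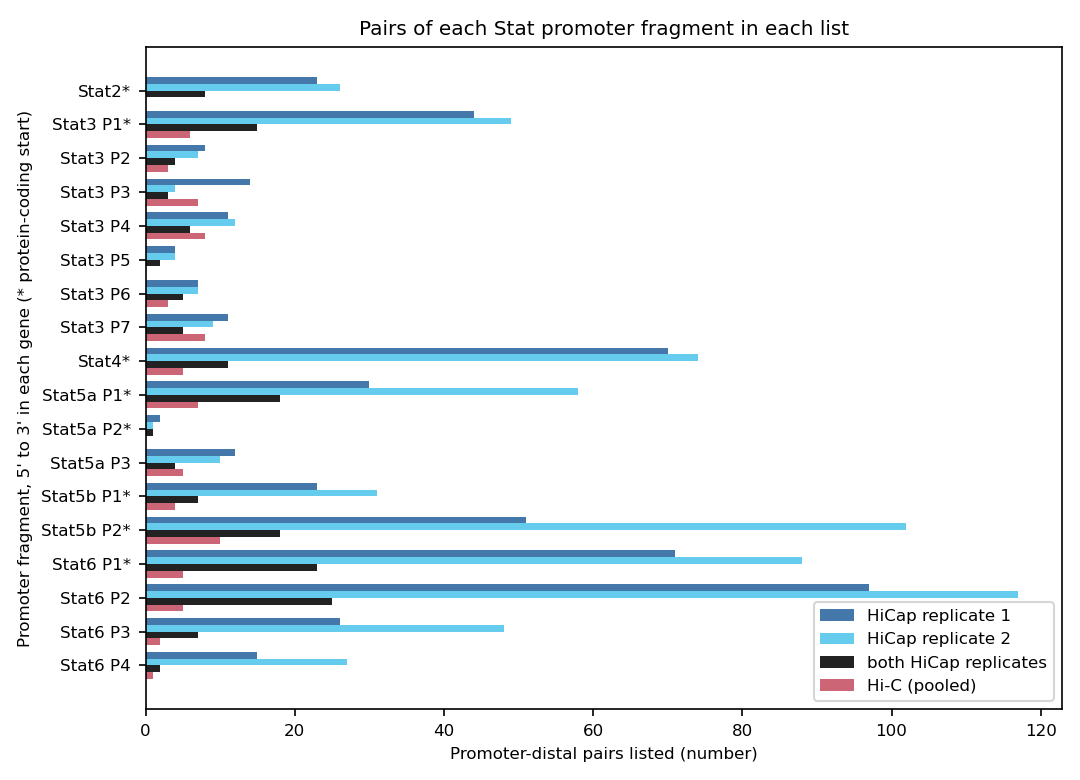
Number of promoter-distal pairs (horizontal axis) of each of the 18 Stat promoter fragments in HiCap replicate 1, in replicate 2, in both and in the pooled Hi-C list; fragments are numbered from the 5′ end of each gene, and a star marks a fragment with a protein-coding transcript start. Called pairs run from 1 at Stat5a P2 to 25 at Stat6 P2.

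The share of pairs that the other replicate listed again was above the share over all genes for the 6 genes together. Of the pairs of replicate 1, 31.6% (27.6 to 35.8, exact Clopper-Pearson 95% interval) were in replicate 2, beside a background of 19.0%. Of those of replicate 2, 24.3% (21.1 to 27.8) were in replicate 1, beside 17.1%. Stat5a had the highest share in replicate 1, at 52.3% (36.7 to 67.5), and Stat3 the highest in replicate 2, at 43.5% (33.2 to 54.2). Stat4 had the lowest in both, at 15.7% (8.11 to 26.4) and 14.9% (7.66 to 25.0), and its intervals hold the background. Stat2, at 34.8% (16.4 to 57.3) and 30.8% (14.3 to 51.8), could not be told from all genes in either replicate, nor could Stat5b, at 18.8% (12.5 to 26.5), and Stat6, at 20.4% (15.8 to 25.6), in replicate 2.

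The share depended on distance, measured between fragment midpoints, and the members kept the higher share in each distance class. From 5 to 10 kb, 49.3% (37.2 to 61.4) of the members' pairs of replicate 1 were listed again, beside 27.1% over all genes. From 25 to 100 kb the values were 26.4% (20.4 to 33.1) beside 13.1%, and from 100 to 500 kb they were 22.5% (14.3 to 32.6) beside 7.68%. In replicate 2 the intervals from 1 to 5 kb and from 10 to 25 kb hold the value of all genes, and the other 3 lie above it.

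**Figure D2:**
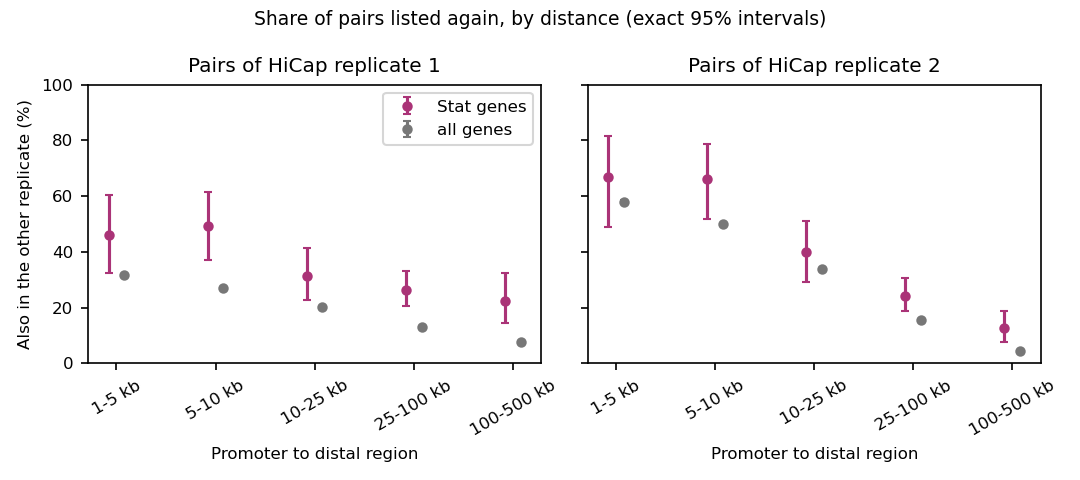
Share of listed pairs (%) that the other HiCap replicate also lists, by distance class, for the Stat genes and for all genes, with exact 95% intervals (those of all genes are narrower than the points). The Stat genes lie above all genes in each class of each replicate, with wide intervals; in replicate 1 from 25 to 100 kb they are at 26.4% and all genes at 13.1%.

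Called pairs spanned 1.89 kb to 315 kb. The median distance was 52.8 kb for Stat3, 20.2 kb for Stat5b, 17.9 kb for Stat6, 12.8 kb for Stat2, 11.1 kb for Stat4 and 7.93 kb for Stat5a, beside 10.3 kb over all called pairs. Stat3 thus had the longest median of the family, though its single longest contact, at 313 kb, was just short of that of Stat4 at 315 kb. Its median pools the pairs of 7 promoter fragments, which share regions. By fragment, the median was 15.3 kb for Stat3 P1, and the longest of the family was 103 kb, for Stat5b P1. The replicates differed in reach: 99 of the 674 pairs of replicate 2 were over 1 Mb, or 14.7% beside 19.4% over all genes, while none of the 519 of replicate 1 were, beside 0.371%. The longest of replicate 2 was a Stat6 pair of 88197 kb, and no pair of the 6 genes over 1 Mb was called.

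**Figure D3:**
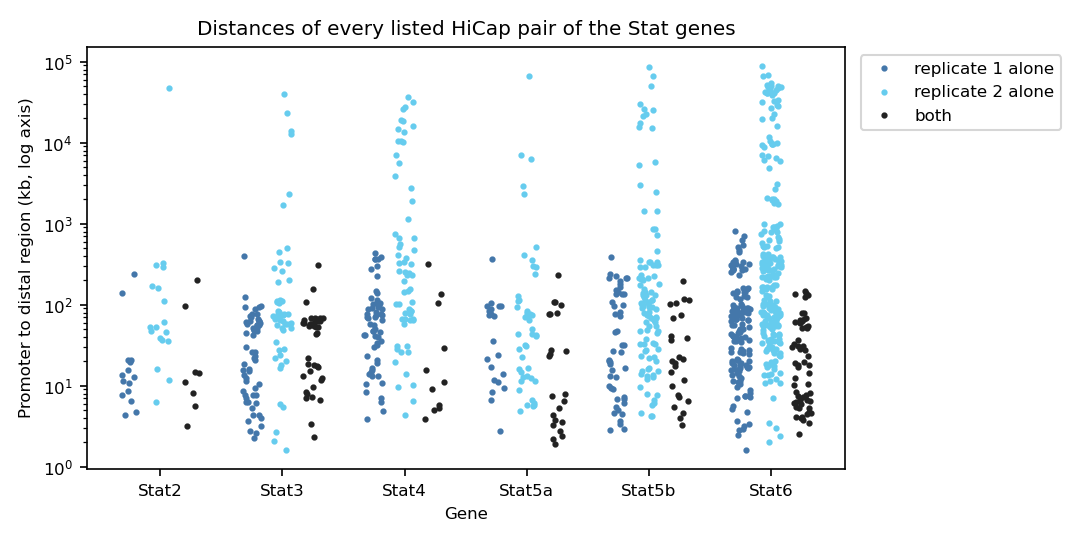
Distance between promoter fragment and distal region (kb, log axis) of every HiCap pair of the 6 genes, split into pairs of replicate 1 alone, of replicate 2 alone and of both. Pairs over 1 Mb are all in replicate 2, and called pairs end at 315 kb.

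Stat3 had 7 promoter fragments, numbered P1 to P7 from its 5′ end. P1, chromosome 11 from 100800702 to 100801701, holds 3 protein-coding transcript starts, and the other 6 lie inside the gene at starts of transcripts that retain an intron. P1 was listed with 44 and 49 pairs in the replicates and 6 in Hi-C, and 15 were called. The 6 inner fragments had 4 to 14 pairs in replicate 1, 4 to 12 in replicate 2, 0 to 8 in Hi-C and 2 to 6 called. Called pairs of P1 lay at a median of 15.3 kb, those of the inner fragments at 35.0 to 67.2 kb.

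The inner Stat3 fragments had few regions of their own. Of the 18 called regions of Stat3, 8 were called by more than 1 of its fragments, the largest share of the family at 44.4%. Stat3 also has the most fragments, and a gene with 1 fragment, as Stat2 or Stat4, cannot have such a region. P7, which lies 49.7 kb from P1, had 5 called regions, and all 5 were among the 15 of P1. P4 shared 4 of its 6 with P1, and P6 shared 4 of its 5. All 7 fragments called a region in the 3′ untranslated exon of Stat3 itself, chromosome 11 from 100747534 to 100748689, at 3.40 to 53.1 kb. Stat3 also called 4 regions in its own introns within the stretch from 100790717 to 100794866, all from P1.

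Stat5a, the prolactin-responsive paralog, had 3 promoter fragments. P1, a fragment of 205 bp from 100720587 to 100720792, had 30 and 58 pairs in the replicates and 7 in Hi-C, and 18 were called. P2, from 100721181 to 100721935, also holds protein-coding starts but had 2 and 1 pairs, with 1 called and none in Hi-C. P3, from 100740078 to 100741322 at a noncoding start, had 12 and 10 pairs, with 4 called and 5 in Hi-C. P1 and P2 lie under 1 kb apart and differed widely in both replicates and in Hi-C. In each, 98.3% or more of the 31-base words occur once in mm9. The cause of the difference was not tested. The authors' combined list places the 18 pairs of P1 on the fragment between P1 and P2, 100720792 to 100721181, which neither replicate lists.

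Called regions of Stat5a gathered at its own start. Of its 20 regions, 6 lay upstream between 100715250 and 100719018, where no gene is annotated, and 6 inside the gene. P1 called all 6 upstream and 5 of the 6 inside, the farthest in a coding exon near the 3′ end of the gene, 100744951 to 100746009, at 24.8 kb. P3 called the remaining one, an intron fragment from 100732616 to 100732922, at 7.93 kb. The only region that all 3 fragments called was the one in the Stat3 3′ untranslated exon.

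Stat5b, the growth-hormone-responsive paralog, had 2 promoter fragments, both with a protein-coding start. P1 at the 5′ end of the gene, 100711431 to 100712178, had 23 and 31 pairs in the replicates and 4 in Hi-C, and 7 were called. P2 inside the gene, 100682484 to 100684088, had 51 and 102 pairs and 10 in Hi-C, and 18 were called. The inner fragment thus led in each list. P2 is also longer than P1, at 1604 bp beside 747 bp, and poorer in G and C, at 45.8% beside 77.6%. The cause of the difference in counts was not tested. The fragments, 28.5 kb apart, shared 1 called region, the exon of Stat5b from 100643335 to 100644427. Stat5b called 24 regions, 17 of them inside its own gene. The median called distance was 103 kb for the 7 pairs of P1 and 16.2 kb for the 18 of P2. The farthest called pair lay at 117 kb for P1 and at 195 kb for P2.

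Stat6, the interleukin 4 responsive member, had 4 promoter fragments, whose midpoints span 16.6 kb. P1 at the protein-coding start, 127079848 to 127080386, had 71 and 88 pairs and 5 in Hi-C, and 23 were called. P2, 127090057 to 127090455, at the start of a transcript that retains an intron, had 97 and 117 pairs and 5 in Hi-C, and 25 were called. P3, a fragment of 175 bp from 127093726 to 127093901, had 26 and 48 pairs with 7 called, and P4, 127096346 to 127096993, had 15 and 27 with 2 called. Counts in both replicates therefore ran in the order P2, P1, P3 and P4, and called pairs in the same order. In P3, 72.4% of the 31-base words occur once in mm9, the lowest value of the 18 fragments, and 99.2% or more in the other 3 of Stat6.

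Stat6, with 4 fragments beside the 7 of Stat3, had a smaller share of regions called by more than 1 fragment. Of 43 called regions, 11 were shared among its fragments, or 25.6%. P1 and P2 shared 6 of their 23 and 25, P2 and P3 shared 4, and P3 and P4 shared none. The upstream gene Lrp1, which encodes a lipoprotein receptor, held 9 of the 43 regions, Stat6 itself 12 and Tmem194, on the other side, 6. Of the 57 called pairs, 39 lay upstream of the promoter fragment and 18 downstream. Along the map of Stat6 contacts, the intergenic region 126948321 to 126949237 was called by P1, P2 and P4 and listed by P3 in replicate 1 alone, at 131 to 148 kb.

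**Figure D4:**
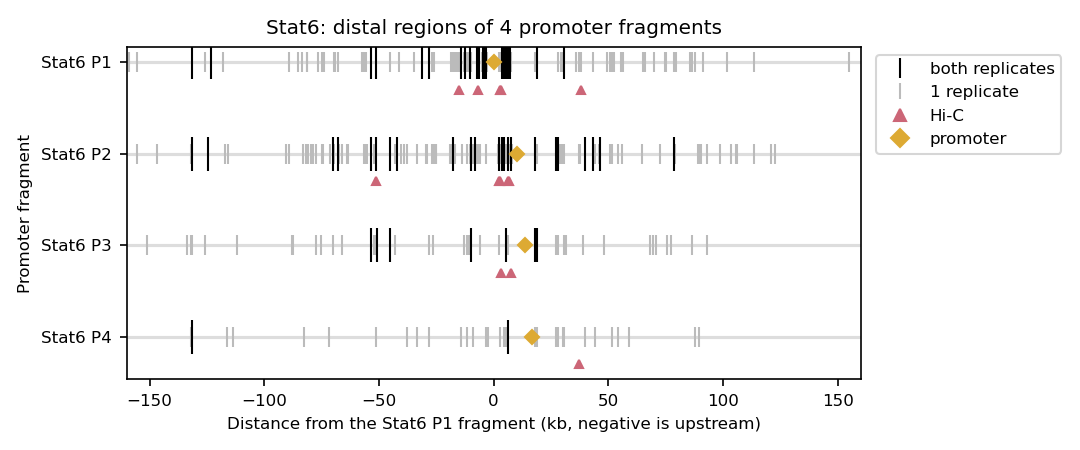
Distal regions of the 4 Stat6 promoter fragments, as distance from the P1 fragment (kb, negative is upstream), with pairs of both replicates in black, of 1 replicate in grey and of Hi-C as triangles; pairs beyond 160 kb are not drawn. P1 and P2 hold most called regions, and 3 of the 4 fragments call the region 131 kb upstream of P1.

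Stat2, the interferon-responsive member, had 1 promoter fragment, 127707624 to 127708276, at its protein-coding start. Of its 8 called regions, 3 lay in Stat2 itself and 2 were intergenic, and the others were in an untranslated exon of Apon, in an intron of Coq10a, which encodes a coenzyme Q protein, at 96.3 kb and in a coding exon of Smarcc2, a subunit of the BAF chromatin remodeller, at 204 kb. In turn 17 of the 20 called regions inside the body of Stat2 were linked to promoters of 7 other genes. Stat4, the interleukin 12 responsive member, had 1 promoter fragment too, 52064902 to 52065723, at a protein-coding start inside the gene, and none was listed under its name at the 5′ end of the gene. Of its 11 called regions, 7 lay in Stat4, 3 were intergenic and 1 was in an intron of a neighbouring gene at 138 kb. No called region inside the body of Stat4 or of Stat5a was linked to another gene.

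Over the 18 fragments, the 8 with a protein-coding start had 1 to 23 called pairs with a median of 13, and the 10 without had 2 to 25 with a median of 4.5. The ranges overlap, and fragment lengths were alike in the median, at 750.5 and 728.5 bp. Their medians in the replicates were 37 and 53.5 pairs with a protein-coding start and 11.5 and 9.5 without.

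The 3 members on chromosome 11 shared called regions with each other. Stat3 and Stat5a shared 7, which was 38.9% of the 18 of Stat3 and 35.0% of the 20 of Stat5a. Stat3 and Stat5b shared 7 as well, 38.9% of the first and 29.2% of the 24 of the second. Stat5a and Stat5b, the adjacent paralogs, shared 5, or 25.0% and 20.8%, and Stat3 called each of these 5 too. On chromosome 10, Stat2 and Stat6 shared none of their 8 and 43 regions. These genes lie farther apart than those of chromosome 11, as Stat6 ends at 127098013 and Stat2 starts at 127707629. Called pairs reached no farther than 148 kb for Stat6 and 204 kb for Stat2. Stat2 and Stat6 shared 1 region in replicate 1 and 3 in replicate 2.

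Each of the 9 regions shared by members of chromosome 11 was called by 10 or more promoter fragments, a count that includes the Stat fragments themselves. The one with the most Stat fragments was the 3′ untranslated exon of Stat3 at 100747534 to 100748689. All 7 fragments of Stat3, all 3 of Stat5a and P1 of Stat5b called it, and P2 of Stat5b was listed with it in replicate 2 alone, at 64.8 kb. Hi-C listed it with P4 and P7 of Stat3 and P1 of Stat5a. Of the 16 promoter fragments that called it, the remaining 5 belong to Atp6v0a1, Coasy, Kcnh4, Naglu and Ptrf.

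Another 4 regions were called by all 3 genes. The fragment at 100487902 to 100488989, which overlaps untranslated exons of Nkiras2 and Zfp385c, was called by P1 of Stat3, P1 of Stat5a and P2 of Stat5b, at 195 to 313 kb. The coding exon of Stat5b at 100643335 to 100644427 was called by P1 and P7 of Stat3, P1 of Stat5a and both fragments of Stat5b, among 21 promoter fragments. Of the remaining pair, a Ptrf untranslated exon at 100817793 to 100818424 was called by 4 fragments of Stat3 and 1 each of Stat5a and Stat5b, and the Ptrf intron at 100828598 to 100829443 by 1 fragment of each. The 4 regions that only a pair of members called lie at 100814331 to 100814593, the first stretch shown above, and in Ptrf.

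**Figure D5:**
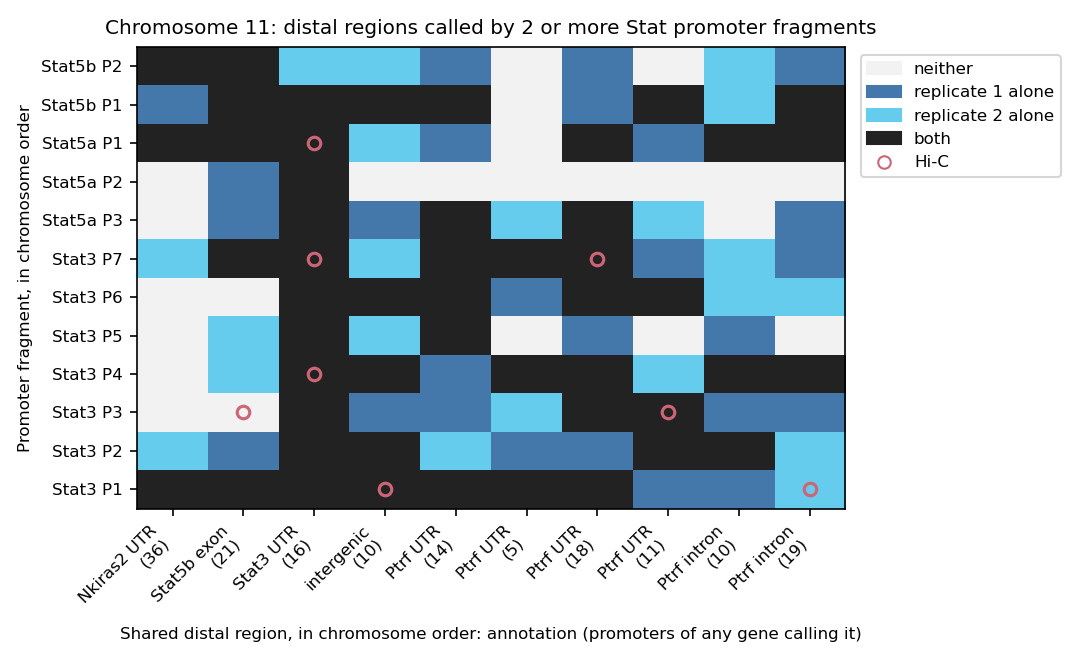
Status of each of the 12 Stat promoter fragments of chromosome 11 (rows) at each distal region that 2 or more of them called (columns, with the number of promoter fragments of any gene that call it); black marks both replicates, blue 1 replicate and a ring Hi-C. The Stat3 untranslated exon, the third column, is black in 11 of 12 rows, and Stat5a P2 is listed at no region to its right.

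Much of the pattern at these regions was seen in 1 replicate alone. At the Ptrf intron of 100828598 to 100829443, 3 of the 12 Stat fragments were in both replicates, 4 in replicate 1 alone, 3 in replicate 2 alone and 2 in neither. At the intergenic fragment of 100814331 to 100814593 the numbers were 5, 2, 4 and 1. So 10 and 11 of the 12 fragments were listed there at least once, and the calls name fewer.

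Over all 110 called regions of the 6 genes, 43 were linked to promoters of 2 or more genes, or 39.1% beside a background of 13.9%. For Stat6 it was 26 of 43, for Stat3 10 of 18 and for Stat2 4 of 8. For Stat5a it was 8 of 20, for Stat5b 8 of 24 and for Stat4 1 of 11. Of the 110, 14 were called by 10 or more promoter fragments, those of the Stat genes included, where 0.495% of the 71923 called regions of all genes were. Both backgrounds count every called region once. Regions reached through chosen genes favour those with many links, so neither share is like for like with its background. The 110 regions measured 71 to 2297 bp with a median of 634 bp. Of them, 29 were intergenic, 47 lay in introns alone, 24 overlapped coding exons, and 50 lay inside the gene that called them.

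The genes with the most similar sets of called regions were neighbours. By the Jaccard index (regions called by both genes over regions called by either), Stat3 was most like Atp6v0a1, which encodes a subunit of the proton pump V-ATPase, at 0.381 with 8 shared regions, then Ghdc at 0.278 and Stat5a at 0.226. Atp6v0a1 also came first for Stat5a, at 0.240, and for Stat5b, at 0.207. Stat5a was next most like Stat3 and Ghdc, and Stat5b most like Stat3, at 0.200, and Rab5c, at 0.135, a gene of endosome traffic. Stat6 was most like 1700012D01Rik at 0.188 with 13 shared regions, then Lrp1 and Nab2. For Stat2 the index stayed at or under 0.154, with Apof first, then Cnpy2 and Ankrd52, and each shared 2 regions with it.

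A captured promoter of the gene itself was the nearest captured promoter for 49.4% (41.5 to 57.3) of the 164 called pairs, beside 56.5% over all called pairs. Stat4 had the highest share, 8 of 11, and Stat2 the lowest, 2 of 8. Called pairs passed over a captured promoter of another gene in 31.1% (24.1 to 38.8) of cases, beside 30.1%. For Stat3 it was 4 of 40, or 10.0% (2.79 to 23.7), below the value of all genes. For Stat6 it was 25 of 57, or 43.9% (30.7 to 57.6), with a lower limit just above it, and for Stat2 5 of 8. The 40 pairs of Stat3 cover 18 regions and the 57 of Stat6 cover 43, while these intervals treat pairs as independent.

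Hi-C without capture held 13 of the 164 called pairs, 7.93% (4.29 to 13.2), an interval that holds the 12.5% of all called pairs. They were 6 of Stat3, 2 of Stat5a, 2 of Stat5b and 3 of Stat6, and none of Stat2 or Stat4. The 13 reached from the 2.78 kb between Stat5a P1 and the intergenic fragment at 100717662 to 100718164 to the 67.8 kb between Stat3 P7 and the Ptrf exon at 100818905 to 100819624. Seen from the Hi-C list, 16.5% of its 79 pairs of the members were called, beside 15.8%. Of those 79, 24 were in replicate 1, 19 in replicate 2 and 49 in neither. Over all genes, 24646 of the 74814 Hi-C pairs were in replicate 1, 16655 in replicate 2 and 45329 in neither.

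The letters TTCNNNGAA, read the same on both strands, occurred in 23 of the 110 called regions of the family, and TTCNNNNGAA in 18. In the central 300 bp of the 90 called regions that are at least that long, TTCNNNGAA occurred in 8.89%, beside 8.62% of the 57456 such windows of all called regions, and TTCNNNNGAA in 5.56% beside 7.31%. Neither share stood apart from that of all regions. Of the 9 RefSeq promoters of the 6 genes (GRCm38.p6, 250 bases before to 50 after a start), none held TTCNNNGAA, beside 8.30% of 32851 promoters, and the Stat2 promoter held TTCNNNNGAA as TTCCCTAGAA, 210 bases before the start. A match is a run of letters and no sign of binding.

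Reads with several positions were discarded by the authors, so contacts in repeated sequence can be missing from the lists. In the 18 promoter fragments, 72.4% to 100% of 31-base words occur once in mm9, with Stat3 P5 at 87.6% and Stat5a P3 at 87.6% the next after Stat6 P3. The called regions had a median of 98.7% and a lowest value of 58.6%, at the intergenic fragment 127072299 to 127073029 upstream of Stat6. The 9 shared regions of chromosome 11 were at 96.2% or more, except for the fragment with the agg run, at 81.0%.

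The other genes of the JAK-STAT pathway were read from a list of 49 by role, and 39 had a call, 79.6% (65.7 to 89.8) beside the 60.7% of all listed genes. All 4 JAK kinases had one, with an exact interval from 39.8% that holds the value of all genes. Jak3, the kinase of lymphoid cytokine receptors, was listed with 81 and 191 pairs in the replicates and 7 in Hi-C with 48 called, while Tyk2 had 30 and 16 with 5 called. Of 18 receptor genes, 11 had a call, led by Lifr, the LIF receptor, with 73 and 76 pairs and 12 called, and Ghr, the growth hormone receptor, with 99 and 76 pairs and 7 called. The share of receptors, 61.1% (35.7 to 82.7), is that of all genes within its interval.

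Of 17 inhibitors, 14 had a call, 82.4% (56.6 to 96.2), an interval that holds the 60.7% of all genes. Pias4, a SUMO ligase that acts on STATs, had 51 and 76 pairs with 28 called, and Socs3, the feedback inhibitor that Stat3 induces, had 52 and 97 with 23 called. Socs2, Socs4 and Socs6 were listed and had no call, at 2 and 1, 6 and 0, and 11 and 6 pairs in the replicates. All 10 genes listed as partner or targets had a call, led by Ccnd1, the cyclin D1 gene, with 200 and 149 pairs and 35 called, and Myc with 144 and 114 pairs and 20 called. Only Jak3, Ccnd1 and Pias4 of the 49 had more called pairs than Stat5b, and none had more than Stat6.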

How the data were processed

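HiCap interactions were taken from lists that the authors deposited for 2 biological replicates of R1 mESCs, for their combined calls and for Hi-C with the replicates pooled. Per the authors' methods, ends of read pairs were aligned to mm9 separately, reads with several positions and close pairs were discarded, and ends were assigned to MboI fragments; a minimum of read pairs was required. Values are positions without normalization, printed as in the files, whose starts count from 0; printed sequences count from 1. The 2 Capture-C samples were not used here. Replicates shared a call when gene, promoter fragment and distal region matched exactly. Annotation was GENCODE vM1, and motif, copy and list scripts (Python 3.11.15, pandas 2.3.3, SciPy 1.17.1) were tested on simulated data. All 110 called regions begin and end at GATC. No hypothesis test was made. Named pathway genes were, per role, the 2 with the most calls and those without a call where 5 or fewer, and the 3 genes most like each member; 1 neighbouring gene is not reported here. The members and lists were chosen with earlier results of these data known.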

Additional observations from a re-analysis of the deposited data

How the results depend on the processing

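No paired analysis was possible because the replicates are 2 libraries of 1 condition, compared by counts and with no test. With either replicate left out, which drops the demand that both list a pair, pairs numbered 23 to 26 for Stat2, 92 to 99 for Stat3, 70 to 74 for Stat4, 44 to 69 for Stat5a, 74 to 133 for Stat5b and 209 to 280 for Stat6, and 519 to 674 in all. By promoter fragment they numbered 44 to 49 for Stat3 P1, 7 to 8 for Stat3 P2, 4 to 14 for Stat3 P3, 11 to 12 for Stat3 P4, 4 with either left out for Stat3 P5, 7 with either left out for Stat3 P6, 9 to 11 for Stat3 P7, 30 to 58 for Stat5a P1, 1 to 2 for Stat5a P2, 10 to 12 for Stat5a P3, 23 to 31 for Stat5b P1, 51 to 102 for Stat5b P2, 71 to 88 for Stat6 P1, 97 to 117 for Stat6 P2, 26 to 48 for Stat6 P3 and 15 to 27 for Stat6 P4, and for Stat2 and Stat4, with 1 fragment each, 23 to 26 and 70 to 74. Shared regions then numbered 11 to 14 for Stat3 and Stat5a, 8 to 16 for Stat3 and Stat5b, 13 to 20 for Stat5a and Stat5b and 1 to 3 for Stat2 and Stat6. Distal regions within 1 kb in place of identical ones matched 329 pairs of replicate 1 to replicate 2. By gene these were 14 for Stat2, 61 for Stat3, 29 for Stat4, 32 for Stat5a, 53 for Stat5b and 140 for Stat6. Of the 164 pairs called by identical regions, 28.0% had a Hi-C region of the same promoter fragment within 1 kb. With calls matched by gene and distal region alone, the share that Hi-C held was 12.3%. Shares listed again within 1 kb were 63.4% in replicate 1 and 43.6% in replicate 2. Among pairs over 15 kb, 92 were called, with 2 for Stat2, 5 for Stat4, 11 for Stat5a, 15 for Stat5b and 30 for Stat6, and the shares were 25.8% and 16.7%. Other alternatives change the unit from pairs to regions. Matching by gene and distal region gave Stat3 21 regions, beside 18 called by promoter fragment. It gave Stat6 66 beside 43, Stat5a 24 beside 20 and Stat5b 25 beside 24, and left Stat2 at 8 and Stat4 at 11. Shared regions then numbered 10 for Stat3 and Stat5a, 7 for Stat3 and Stat5b and 7 for Stat5a and Stat5b. Merging adjoining regions left 14 for Stat3, 15 for Stat5a and 29 for Stat6, beside 18, 20 and 43 unmerged. It left 19 for Stat5b beside 24, 10 for Stat4 beside 11 and 8 for Stat2, as before. In the combined list, Stat5a P1 had 0 pairs. Of alternatives chosen after seeing the data, pairs up to 1 Mb raised the share in replicate 2 to 28.5%, and leaving out regions called by 10 or more promoter fragments brought the shared regions of Stat3 and Stat5a, of Stat3 and Stat5b and of Stat5a and Stat5b to 0 by construction, since all of them meet that count and the members' own fragments enter it. The alternative shares are given without those of all genes, so they do not show how the members compare with the background. The count of JAK-STAT genes with a call was 39 and ran from 29 to 49 over its alternatives. The cause of these differences was not tested, apart from the alternatives' own construction. Without read numbers, depth cannot be set against any absent pair.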
